A study of Equus caballus with 13 samples.

Results

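The genes described here are 9 components of the interferon response in cultured chondrocytes, the resident cells of cartilage, of the horse (Equus caballus). They were chosen by name: the transcription factors STAT2, IRF9, IRF7 and IRF1, the RNA sensor IFIH1, and the effectors ISG15, MX1, IFIT2 and IFIT3. The choice was made with earlier results of the same data known, so every comparison below is a description and none is a test. Of the 9, 8 were listed in both tables of RNA kinetics, among 11056 genes in the table for age, 11249 in the table for sex and 10974 in both. IFIH1 was listed under that name in neither table and was not analysed here. An Ensembl identifier stood in place of a symbol for 751 of the 11331 genes listed in either table.

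Interferons are secreted signals that cells release on sensing foreign or misplaced nucleic acid. They bind receptors that activate the kinases JAK1 and TYK2, which phosphorylate STAT factors, STAT2 among them. STAT2 joins IRF9 in a complex that binds interferon-stimulated response elements in promoters and switches on genes that block viral replication. IRF7 and IRF1 are themselves induced and extend the response. Many tissues make a low level of these transcripts without infection.

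The samples were cultures of wild-type chondrocytes released from cartilage, kept for 2 days in medium and labelled for 4 h with 4-thiouridine (4sU). Cells build this analogue of uridine into new RNA, and alkylation with iodoacetamide for 15 min at 50 °C lets it be read as a base change, so that new and older RNA can be told apart in one library. The labels gave 5 old female, 5 young female and 3 young male samples, without ages in years or breeds; all 3 groups carried the same genotype and received the same labelling, and the young female samples were the reference for both others. Batch labels numbered 12 for the 13 samples, and 1 of them, batch 10, held a young female and a young male. No other batch was shared between groups, and values were given per group only, so batch and group cannot be told apart.

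The authors deposited 1 synthesis rate and 1 half-life per gene and group. There is no value per sample, so the spread between animals and the depth per library are unknown, and neighbouring values in any order of groups cannot be separated by their error. Synthesis rates are in arbitrary units that are not known to be scaled by gene length, so they are compared between groups of one gene and not between genes. Half-lives were read as hours. The implied level of a gene, the product of its half-life and synthesis rate over ln 2, stands for the amount of its RNA at steady state. In these bulk cultures fewer cells of a type and less RNA per cell cannot be told apart.

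All 13 chondrocyte markers checked, COL2A1, ACAN and SOX9 among them, were listed in both tables. Of 12 leukocyte and macrophage markers only CD14 was listed, with a log2 ratio of implied level of 0.26 in old over young female and 0.15 in young male over young female cells; PTPRC, CD68 and CSF1R were not. Of 6 endothelial markers only VWF was listed (0.26 and 0.04).

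Of the 8 genes, 5 had half-lives of 1 to 24 h in every column and are called resolved here, and IRF1, IFIT2 and IFIT3 had at least 1 half-life under 0.5 h. In the young female column of the age table the half-life was 1.28 h for IRF9, 1.82 h for IRF1, 1.98 h for MX1, 3.25 h for IRF7, 4.91 h for STAT2 and 5.49 h for ISG15. The median of all genes in that column was 3.64 h, so the ubiquitin-like modifier ISG15 and STAT2 had RNA of more than median stability and the other 4 had RNA of less. IFIT2, listed at 0.682 h, was at the 1.45th percentile of all half-lives, and IFIT3, listed at 0.0229 h, at the 0.244th.

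The half-lives of 5 genes stayed within 1 to 24 h in every column. STAT2, a factor of type I interferon signalling, was listed at 4.91 h in young female against 4.17 h in old cells in the age table, and at 4.91 h against 4.16 h in male cells in the sex table. For IRF9, the DNA-binding subunit of the complex, the corresponding half-lives were 1.28 and 1.52 h, then 1.28 and 1.28 h. For IRF7, which amplifies type I interferon production, they were 3.25 and 2.84 h, then 3.14 and 2.97 h. These 3 transcription factors differed by at most 1.19-fold between groups as listed. Relative to the median of all genes, the log2 ratios in male cells were −0.51 for STAT2, −0.35 for IRF7 and −0.27 for IRF9. In old cells they were −0.15, −0.11 and 0.33.

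ISG15 had half-lives of 5.49 h in young female and 5.90 h in old cells, and of 5.48 h in young female and 6.02 h in male cells. MX1, a dynamin-like GTPase that traps viral nucleocapsids, had half-lives of 1.98 and 2.60 h, then 1.98 and 2.97 h. MX1 RNA was thus listed as longer-lived in both other groups, 1.31-fold (log2 ratio 0.39) in old and 1.5-fold (0.58) in male cells, where the median log2 ratio of all genes was −0.08 by age and 0.27 by sex. The 5 genes STAT2, IRF9, IRF7, ISG15 and MX1 moved by at most 0.05 log2 units in half-life between the young female columns of both tables, which come from the same 5 samples.

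**Figure D1:**
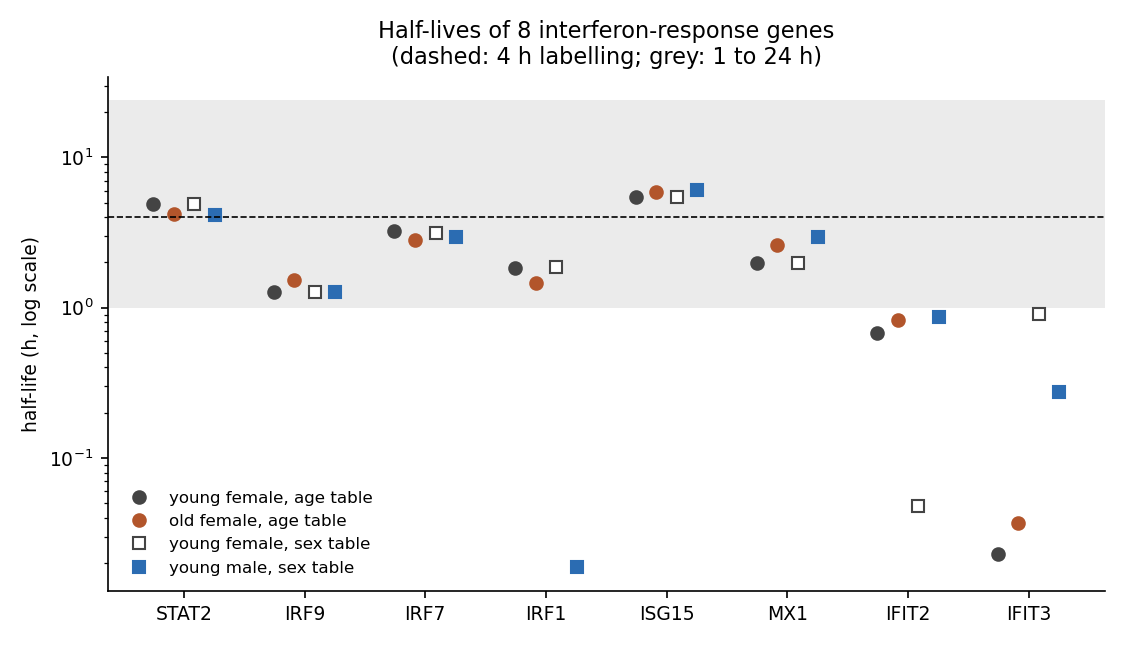
Half-life (h, log scale) of each of the 8 listed genes in the 4 group columns; each point is the authors' single group value, so there are no error bars. STAT2, IRF9, IRF7, ISG15 and MX1 stayed within 1 to 24 h in every column, while IRF1 lay outside that range in young male cells only and IFIT2 and IFIT3 were below it throughout.

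IRF1, an early-induced activator of interferon and inflammatory genes, was listed at 1.82 h in young female and 1.45 h in old cells, and in the sex table at 1.87 h in young female and 0.0187 h in male cells. Its synthesis rate in the sex table was listed at 133 in young female and 6875 in male cells, and both male values are among those called unresolved below. IFIT2, an RNA-binding antiviral protein, was listed at 0.682 and 0.830 h in young female and old cells, then at 0.0482 and 0.863 h in young female and male cells. IFIT3, which binds and stabilises other IFIT proteins, was listed at 0.0229 and 0.0370 h, then at 0.910 and 0.276 h.

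For the IFIT genes the young female estimate itself did not repeat between tables. The half-life of IFIT2 was 14.1-fold longer in the age table than in the sex table and its synthesis rate 13.3-fold lower. For IFIT3 the half-life was 39.8-fold longer in the sex table and the synthesis rate 40.2-fold lower. The implied levels of the same genes differed by 1.06-fold and 1.01-fold, so the product of synthesis rate and half-life repeated where its factors did not.

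This behaviour was shared with other short-lived transcripts. Among the 10974 shared genes, 94 had a young female half-life under 0.1 h in one table and at least 0.5 h in the other, IFIT2 and IFIT3 among them, and the longer of the 2 values ran from 0.515 to 1.78 h. Few half-lives lay between: the young female column of the age table held 99 genes under 0.1 h, 12 from 0.1 to 0.5 h and 547 from 0.5 to 1 h. A half-life of 0.5 h implies that 99.6% of a gene's RNA was made within the 4 h of labelling, and one of 1 h implies 93.8%. The longer of the 2 young female half-lives implies 98.3% for IFIT2 and 95.2% for IFIT3, and the shorter implies over 99.6% for both. The listed half-lives and synthesis rates of IFIT2 and IFIT3 in all groups, and of IRF1 in male cells, are called unresolved, given as values and not read as differences, and the implied level is used for these genes. Why the estimates did not repeat was not tested.

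**Figure D2:**
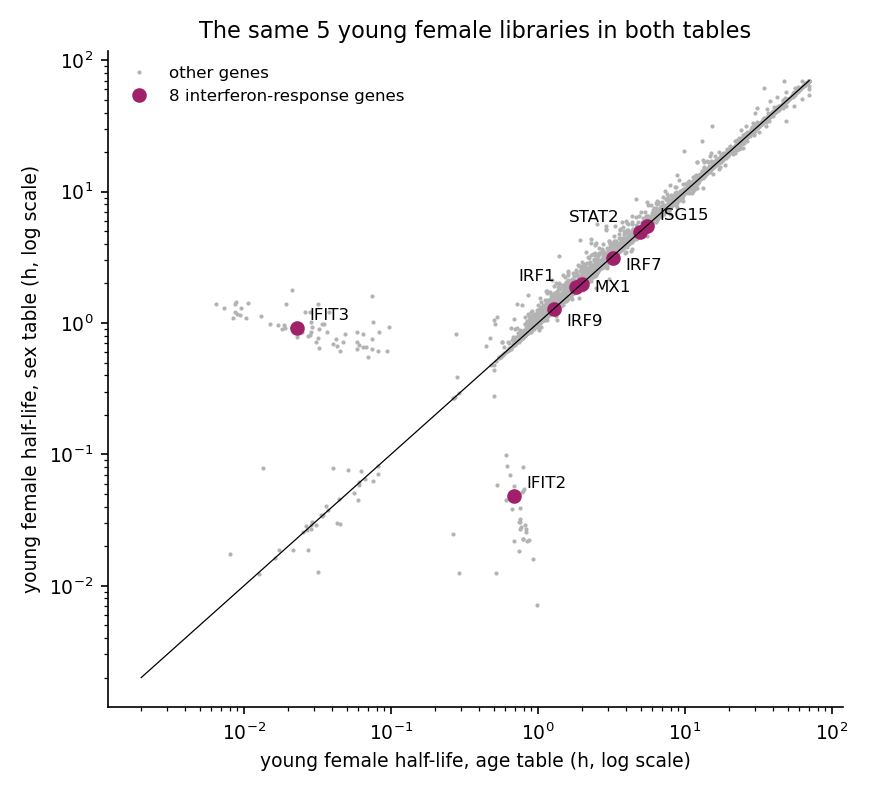
Young female half-life in the age table (x axis, h) against that in the sex table (y axis, h), both on log scales, for 10974 shared genes estimated from the same 5 libraries; the line marks equal values. STAT2, IRF9, IRF7, IRF1, ISG15 and MX1 lie on the line, while IFIT2 and IFIT3 lie far from it, within the 94 genes that switched between values under 0.1 h and values of at least 0.5 h.

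The comparison of groups asked whether young female cells stood apart from both old female and young male cells. In implied level they were above both for 6 of the 8 genes, STAT2, IRF9, IRF7, ISG15, MX1 and IFIT3, and below both for 0. Over all 10974 shared genes 27.3% were above both and 27.7% below both. By a margin of at least 0.5 log2 units against each group, young female cells were above both for 2 of 8, IRF7 and ISG15, where the background was 1.6%. By a margin of 1 log2 unit they were above both for 0 of 8 (background 0.246%). In synthesis rate young female cells were above both for 5 of 8, STAT2, IRF9, IRF7, ISG15 and MX1 (31.3% of all genes), and below both for IRF1 (19.7%), whose male value is unresolved. By at least 0.5 log2 units they were above both in synthesis for 4, IRF9, IRF7, ISG15 and MX1 (3.9%). Relative to the median of all genes 2 of these, ISG15 and MX1, passed that margin (3.1%), while IRF9 and IRF7 were at −0.32 and −0.35 in male cells and STAT2 was no longer above both. In half-life, among the genes resolved in every column, they were above both for STAT2 and IRF7 (17.8% of all genes) and below both for ISG15, MX1 and IRF9 (32.4%), although IRF9 was listed at 1.28 h in both groups of the sex table. Relative to the median of all genes, MX1 was the only resolved gene with a half-life below both. The listed half-lives of IRF1, above both, and IFIT2, below both, include unresolved values. In implied level the 2 exceptions, IRF1 and IFIT2, had their highest implied level in old cells. Both ratios use the same young female samples, so a deviation of those samples alone would appear in both, and the members were chosen with this pattern in view.

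Among the transcription factors, IRF7 had the largest difference by age. In the age table its implied level was 510.6 in young female and 232.1 in old cells, 2.20-fold lower in old cells. Both values were low, below the lower quartiles of all genes in those columns, 628.0 and 638.6. These units are not known to be scaled by gene length, and the depth behind the values is unknown. In the sex table the implied level of IRF7 was 487.3 in young female and 298.5 in male cells, 1.63-fold lower in male cells. Young female cells were the highest group. The synthesis rate of IRF7 was 108.9 against 56.7 in the age table and 107.6 against 69.7 in the sex table.

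The implied level of IRF9 was 2211 in young female and 1777 in old cells, and 2110 in young female and 1392 in male cells. That of STAT2 was 3255 and 2595, then 3108 and 2429. Both genes were lower in each of the other groups, by 1.24-fold and 1.52-fold for IRF9 and by 1.25-fold and 1.28-fold for STAT2. The log2 ratio of half-life of STAT2 was −0.24 in both comparisons, while that of synthesis rate was −0.09 in old and −0.12 in male cells. Relative to the median of all genes the old ratios were −0.15 for half-life and −0.17 for synthesis rate, so neither held most of the difference by age. In male cells, relative to the median of all genes, the log2 ratios of STAT2 were −0.51 for half-life and −0.36 for implied level. The synthesis rate of STAT2 was 0.16 log2 units higher on that scale, so its direction turned with that centring.

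IRF1 did not follow the other factors by age. Its implied level was 376.4 in young female and 466.8 in old cells, 1.24-fold higher in old cells, but 359.3 in young female and 185.7 in male cells, 1.93-fold lower in male cells.

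Of the effectors, ISG15 had the lowest level in old relative to young female cells among the 8 genes. Its implied level was 2313 in young female and 793.2 in old cells, 2.92-fold lower, and 2208 in young female and 1210 in male cells, 1.82-fold lower. The old ratio lay at the 0.579th percentile of all genes and the male ratio at the 2.77th. The difference lay in synthesis, listed at 292.1 against 93.2 in the age table (log2 ratio −1.65) and at 279.2 against 139.3 in the sex table (2.005-fold lower, or a log2 ratio of −0.72 relative to the median of all genes). ISG15 was the only one of the 8 genes whose synthesis rate in young female cells exceeded both other groups by at least 1 log2 unit (background 0.966%).

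MX1 had an implied level of 1205 in young female and 885.1 in old cells, 1.36-fold lower, and of 1150 in young female and 645.7 in male cells, 1.78-fold lower. Its synthesis rate differed more than its level, 421.0 against 235.7 (log2 ratio −0.84) and 401.6 against 150.5 (−1.42), with a longer half-life where synthesis was lower. The 2 quantities are not independent estimates. Between the young female columns, for genes of 1 to 24 h, log2 shifts had standard deviations of 0.30 for synthesis rate and 0.31 for half-life. That of their product, the implied level, was 0.005, so an error in one appears inverted in the other. Whether the 2 differences of MX1 were separate was not tested.

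The 2 IFIT genes had opposite differences by age. The implied level of IFIT2 was 2698 in young female and 9162 in old cells, 3.40-fold higher and at the 99.6th percentile of all genes. In the sex table it was 2534 in young female and 1059 in male cells, 2.39-fold lower and at the 0.631th percentile. The implied level of IFIT3 was 447.2 and 356.2 in the age table, 1.26-fold lower in old cells, and 443.0 and 243.2 in the sex table, 1.82-fold lower in male cells. IFIT2 was thus highest in old cells and lowest in male cells, and IFIT3 was highest in young female cells. IFIT genes form a family of related sequences, as do MX1 and MX2, and how the authors' counting treated reads shared between relatives is not given in the sources used here. IFIT1, IFIT5 and MX2 were listed in neither table.

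**Figure D3:**
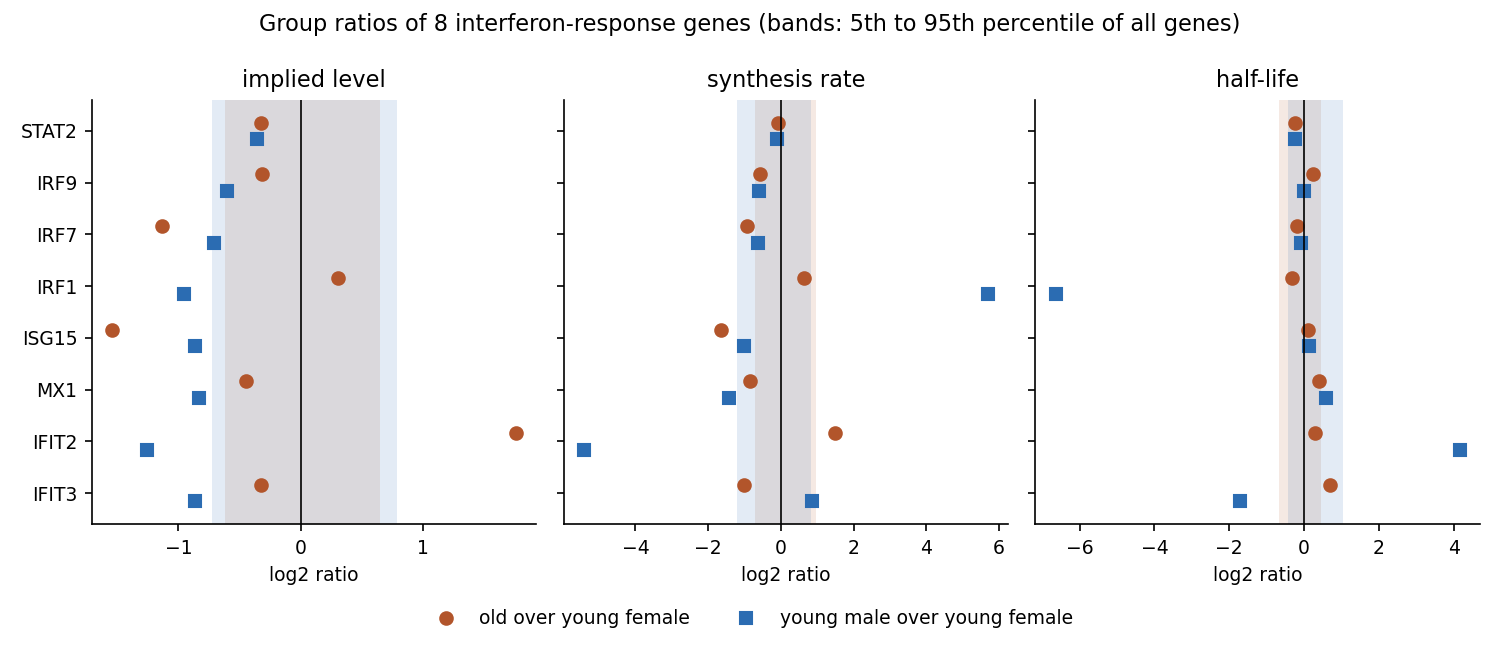
Log2 ratios of implied level, synthesis rate and half-life for the 8 genes, old over young female (circles) and young male over young female (squares); bands span the 5th to 95th percentile of all genes of each table. In implied level all 8 squares and 6 of 8 circles lie below 0, and in the other panels the young male ratios of IRF1 and IFIT2, which are among the unresolved values, lie farthest from 0.

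By age, 6 of the 8 genes had a lower implied level in old cells, where 49.3% of all genes did, and 3 of the 8 were at least 2-fold different, IRF7 and ISG15 lower and IFIT2 higher, where 4.12% of all genes passed (1.99% lower, 2.13% higher). The median log2 ratio of the 8 was −0.33, against 0.00 for all genes. By sex, 8 of 8 were lower in male cells, where 49.5% of all genes were lower. Of these IFIT2 was at least 2-fold lower (background 1.61%). IRF1, at −0.95, passed only with the young female level from the age table. Young female levels in the sex table were 0.955-fold those in the age table, nearly constant over all shared genes (standard deviation 0.006 log2 units). The pass of IRF1 thus came with that offset and is not a second estimate. The median log2 ratio of the 8 was −0.85, from −1.26 for IFIT2 to −0.36 for STAT2, against 0.01 for all genes.

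In synthesis rate the 5 genes resolved in every column, STAT2, IRF9, IRF7, ISG15 and MX1, were lower in old cells (39.8% of all genes), ISG15 at least 2-fold (2.92%). The ratios of IFIT3, listed as at least 2-fold lower, and of IFIT2, listed as at least 2-fold higher (4.59%), reversed to 4.31 and −2.25 with the young female values of the sex table. In male cells the same 5 genes were lower (71.1%), ISG15 and MX1 at least 2-fold (8.37%). Relative to the median of all genes MX1 kept that size (−1.14), ISG15 did not, and STAT2 was higher. The male synthesis ratios of IFIT2 (listed as lower) and IRF1 (listed as higher, 3.78%) are among the unresolved values. Over all genes the median ratio of male to young female cells was −0.28 for synthesis and 0.27 for half-life on the log2 scale. The median synthesis ratio of the 5 resolved genes, that of IRF7, was −0.63 in male cells as listed and −0.35 relative to that shift. In half-life 0 of 8 differed at least 2-fold by age (background 3.53%). By sex 3 did (7.58%), and these were the unresolved IRF1, IFIT2 and IFIT3.

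The labelled cell type and state markers also differed between these groups. Of 13 chondrocyte markers 12 had a higher implied level in male cells, SOX9 being the exception (−0.08), and 9 were lower in old cells, where 50.5% of all genes were higher by sex and 49.3% lower by age. Their summed implied level, which the most abundant genes dominate, was 2.53-fold higher in male cells. In old cells it was 0.907-fold as high, and 0.710 to 1.01-fold when 1 gene was left out. Of 8 listed fibroblast and synovial markers 7 were higher in male cells, led by COL1A1 (log2 ratio 4.19), and 6 of 7 were lower in old cells, COL1A1 at −2.86; DCN was higher in both, at 1.35 in old and 1.37 in male cells. The summed level of the 7 in both tables was 2.32-fold higher in male cells. In old cells it was 1.41-fold higher with DCN and 0.585-fold as high without it. The part of these marker differences in the interferon result was not tested.

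The rest of the pathway was described from 8 lists, of which 1, the interferon genes themselves, had 0 of 8 members listed. Among other interferon-stimulated genes, 25 of 51 were listed for age and 29 for sex. In old cells 21 of 25 had a lower implied level (49.3% of all genes), 5 of them at least 2-fold (1.99%), and 1 was at least 2-fold higher (2.13%). The median log2 ratio was −0.46 (all genes 0.00). In male cells 26 of 29 were lower (49.5%), 4 at least 2-fold (1.61%), with a median of −0.66 (all genes 0.01).

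The OAS genes, which make the oligoadenylate messenger that activates RNase L, included the 2 lowest ratios by age. The implied level of OAS3 was 5.40-fold lower in old and 1.68-fold lower in male cells. That of OAS1 was 3.80-fold lower in old and 2.61-fold lower in male cells, and that of OAS2 2.58-fold and 1.6-fold lower. Their half-lives, 2.13 to 2.66 h in young female cells of the age table, lay within 1 to 24 h, and the log2 ratios of synthesis rate by age were −2.23 for OAS3, −1.68 for OAS1 and −1.40 for OAS2.

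TRIM21, a cytosolic antibody receptor and ubiquitin ligase, was 2.09-fold lower in implied level in old and 2.5-fold lower in male cells. EIF2AK2, the double-stranded RNA-dependent kinase PKR, was 1.47-fold and 2.46-fold lower. UBA7, the activating enzyme that charges ISG15 for conjugation, was 2.62-fold and 1.69-fold lower. NMI, an interferon-inducible protein that binds STAT factors, went the other way by age, with an implied level 2.04-fold higher in old and 1.22-fold lower in male cells. DDX60, a helicase listed in the sex table only, was 2.35-fold lower in male cells.

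Synthesis rate was lower and half-life longer in male cells for most of these interferon-stimulated genes, the directions also of the medians of all genes (log2 ratios −0.28 and 0.27). SAMD9 and EPSTI1 were lower in both quantities and UBE2L6 was higher in both. Of the 29, 28 had a lower synthesis rate in male cells (71.1% of all genes), 18 at least 2-fold (8.37%), the median log2 ratio being −1.20, and −0.92 relative to all genes. A longer half-life was listed for 27 of 29, as for 77.3% of all genes, with a median of 0.50, or 0.23 relative to all genes. Lower synthesis and longer half-life are not separate observations here, because an error in one appears inverted in the other. An example of a longer half-life was OAS3, at 2.09 h in young female and 4.59 h in male cells. UBA7 was listed at 14.3 and 39.8 h, but its male value lies beyond the 1 to 24 h called resolved. In old cells 10 of 25 had a longer half-life, near the 36.5% of all genes, with a median of −0.03; the difference between the comparisons was not tested.

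Upstream in the signal relay, none of 6 interferon receptor chains or of 7 listed JAK and STAT genes had an implied level at least 2-fold different in either comparison. Nor did any of 5 other genes named for IRF factors, namely IRF2, IRF3 and the IRF2-binding proteins IRF2BP1, IRF2BP2 and IRF2BPL. Of all genes 4.12% did by age and 4.61% by sex. The median log2 ratios of implied level by age and by sex were 0.07 and −0.09 for the receptors. They were −0.06 and −0.15 for the JAK and STAT genes, and 0.12 and −0.02 for the 5 genes named for IRF factors. Of the latter, IRF2 was at −0.09 and −0.79 and IRF3 at 0.13 and −0.02. The synthesis rate of IRF2 was 2.38-fold lower in male cells, where 8.37% of all genes were at least 2-fold lower.

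Among 9 listed sensors and adaptors 8 had a lower implied level in old and 6 in male cells (49.3% and 49.5% of all genes), none at least 2-fold. RIGI, the RNA sensor related to IFIH1, was 1.19-fold lower in old and 1.42-fold lower in male cells. TBK1, the kinase that activates IRF3, was 1.09-fold and 1.97-fold lower. STING1, the adaptor of DNA sensing, had a half-life of 7.42 h in young female and 17.6 h in male cells with a level 1.26-fold higher in male cells.

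Of the feedback inhibitors 7 of 8 had a higher implied level in old cells (50.7% of all genes), with a median of 0.32, and 6 of 9 a lower one in male cells (49.5%). USP18, which removes ISG15 from proteins and was listed in the sex table only, was 2.07-fold lower in male cells. The phosphatase PTPN6 was 1.64-fold higher in old and 1.40-fold higher in male cells. Of 11 listed genes linked to interferon gamma, 6 were lower in old and 5 in male cells, near the 49.3% and 49.5% of all genes. GBP1, a guanylate-binding GTPase, was 1.94-fold lower in old and 2.06-fold lower in male cells, and WARS1, the tryptophanyl-tRNA synthetase, was 1.64-fold higher in old and 1.19-fold higher in male cells.

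**Figure D4:**
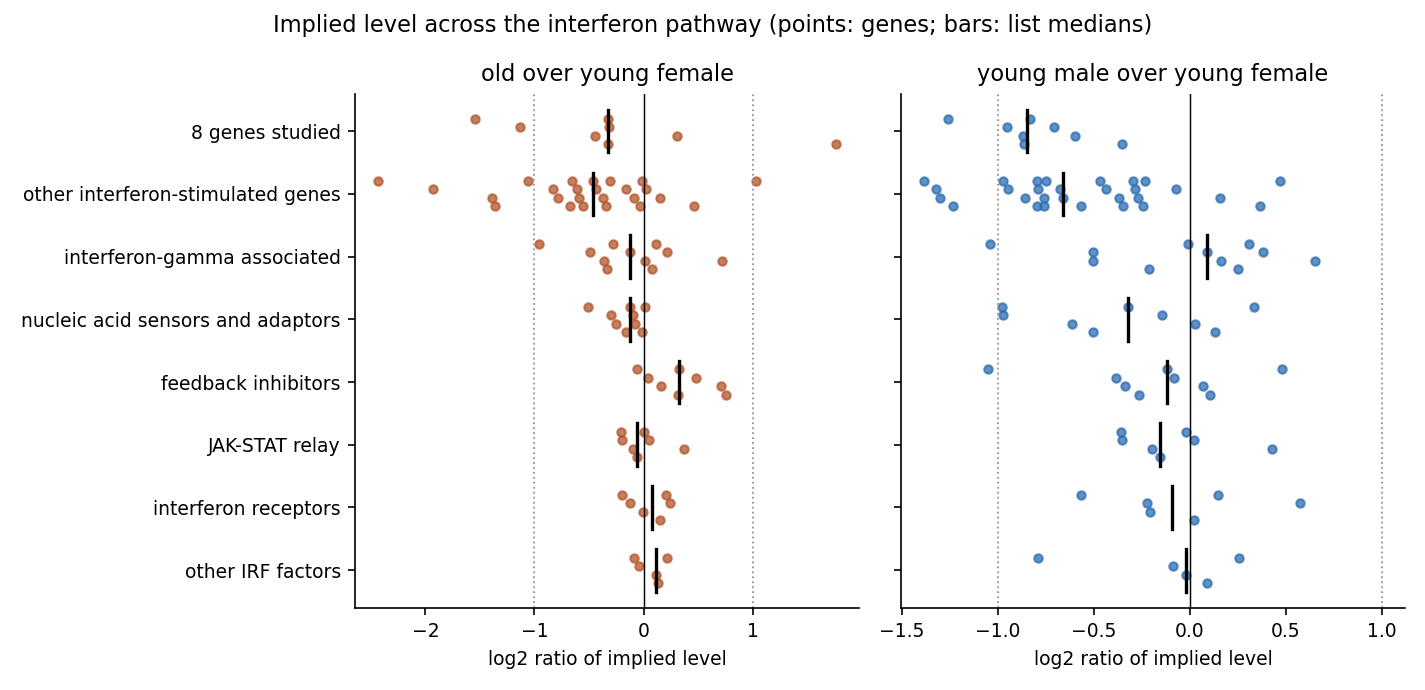
Log2 ratios of implied level for the 8 genes and 7 pathway lists, old over young female (left) and young male over young female (right); points are genes, black bars list medians, dotted lines 2-fold. The 8 genes and the other interferon-stimulated genes have medians of −0.33 and −0.46 by age and −0.85 and −0.66 by sex. The receptors, the JAK and STAT genes, and the list of other IRF factors and IRF2-binding proteins have medians from −0.15 to 0.12 over both panels.

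Genes with ratios most like those of the 8 were sought among 8020 non-members with a symbol and half-lives of 1 to 24 h in all columns, by Euclidean distance to the median of the 8 over 4 values, the log2 ratios of synthesis rate and half-life by age and by sex. That median takes in the unresolved values of IRF1, IFIT2 and IFIT3. The nearest 5 were DGKD (distance 0.19), EHD4 (0.21), SPOPL (0.22), STK10 (0.28) and ABI1 (0.29), compared with 1.08 for the median candidate. None of these was in the lists of interferon pathway genes. Around the median of the 5 resolved genes, an alternative added after seeing the data, 2 of them, EHD4 (0.18) and DGKD (0.29), were again among the nearest 5, and CBARP, PMEPA1 and AMOTL1 replaced the others. Of the 8 genes themselves IRF9 lay nearest to the median (0.16) and IRF7 next (0.45). STAT2, ISG15 and MX1 lay at 0.91, 1.04 and 1.05, close to the median candidate. IFIT3 (2.32), IFIT2 (6.75) and IRF1 (9.24) lay farther out, by distances that include unresolved values, so the median of the 8 stood for IRF9 and IRF7 more than for the others.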

How the data were processed

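Per the labels' protocols, RNA of 4sU-labelled chondrocytes was alkylated, poly(A)-selected and made into directional libraries. Per the submitters' processing notes, cutadapt 4.5, STAR 2.5.3 and the build EquCab3.0 were used; the kinetic model, the gene filter and the way replicates were combined are not given in the sources used here. The authors deposited, per the file headers, 1 synthesis rate (a signal in arbitrary units) and 1 half-life per gene and group in each of 2 tables. The column headed Young was read as young female because the labels tie those samples to both tables. Half-lives were read as hours, a unit that the sources used here do not state. They stop at 69.3, a decay rate of 0.01 per unit of time, which does not identify the unit. There were 0 columns of per-sample values, so no test across samples, interval or depth could be computed.

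Log2 ratios were computed within one table (Python 3.11.15, pandas 2.3.3, NumPy 2.4.6; figures with Matplotlib 3.10.9), without pseudocount or filter. Simulated data with known folds and no noise were used to check the arithmetic alone. The implied level assumes constant RNA levels during labelling. The threshold was 1 log2 unit. One gene of the JAK and STAT list is not reported here and was left out of its counts. The tests on values per sample that had been provided for in the design were not used, since the tables hold group values. The members and lists were chosen with earlier results of these data known. From each list, at most 8 genes were named: those at least 2-fold different in any quantity with half-lives of at least 1 h in all columns, by the size of the level ratio; other genes named, such as SOX9, CD14 and VWF, were chosen after their values were seen. Alternatives were a threshold of 0.5, half-lives of 1 to 24 h, the 75% of genes with the highest mean synthesis rate, ratios centred on the median, and young female estimates taken from the opposite table.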

Additional observations from a re-analysis of the deposited data

How the results depend on the processing

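Ratios and medians were taken as moved when they changed by more than the 95th percentile of the shift between the young female values of both tables for genes of 1 to 24 h (0.22 log2 units for synthesis rate, 0.16 for half-life, 0.07 for implied level), and counts when they changed by more than 1.5 times. The limit for implied level is mostly the nearly constant offset between the tables (median shift −0.067, standard deviation 0.005). For levels with the opposite table, staying or moving is thus largely set by that offset. Among alternatives for counts and medians of the 8 genes, 95 stayed within these limits and 32 moved; among those for single genes and other lists, 161 stayed, 66 moved and 6 reversed. At a threshold of 0.5 the genes lower and higher in synthesis rate numbered 5 and 2 in old cells (8.18% and 14.8% of all genes) and 5 and 2 in male cells (32.1% and 8.96%), 1 half-life was longer in old (4.47%) and 2 in male cells (27.4%), and 7 levels were lower in male cells (12% of all genes). Young female cells were then above both groups for 4 genes in synthesis (3.9%) and 2 in level (1.6%), and below both for 1 in synthesis (3.58%). With half-lives of 1 to 24 h, 6 of the 8 genes were left for age and 5 for sex. Then 1 synthesis rate was lower and 0 higher in old cells, 0 were higher in male cells, 0 half-lives passed in male cells in either direction, 0 levels were higher in old and 0 lower in male cells, and young female cells were below both in synthesis for 0; the median log2 half-life ratio in old cells was −0.046 and the median level ratio in male cells −0.71. In that range 1 fibroblast marker was left and the list's median level ratio in male cells turned to −0.21. With the upper 75% of genes by synthesis rate 1 level was lower in old cells, ISG15. Centring gave 2 synthesis rates higher in male cells, medians over the 8, unresolved values included, of −0.34 for synthesis rate and −0.31 for half-life in male cells, 0 genes with synthesis above both groups by 1 log2 unit, and 2 half-lives below both. Centring at a threshold of 0.5, added after seeing the data, left 2 genes above both groups in synthesis. Leaving out 1 marker gene, also added then, turned the summed level in old cells from lower to 1.01-fold for chondrocyte markers without ACAN and from higher to 0.585-fold for fibroblast markers without DCN. When young female estimates came from the opposite table, 1 half-life was shorter and 1 longer in old cells, 1 was shorter and 2 levels were lower in male cells, and 2 genes were above both groups in synthesis by 1 log2 unit. Of the 2 levels, that of IRF1 passed with the offset in level between the tables. The synthesis ratio by age then reversed to −2.25 for IFIT2 and to 4.31 for IFIT3, and the half-life ratio by sex to 3.59 for IFIT3. Of ratios under 1 log2 unit as listed, those of IFIT3 turned to −4.47 in synthesis by sex and to −4.62 in half-life by age. No paired analysis was possible because the tables hold no values per replicate; for the same reason leaving out replicates was not run. The promoter motif alternative was not run either, since no promoter sequences were used here.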

Other observations

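The male column held more genes with a half-life between 0.1 and 0.5 h than the young female columns, 53 against 12 in the age table and 9 in the sex table, while 128 male, 129 old, 99 and 70 young female values were under 0.1 h. IFIT3 in male cells, at 0.276 h, was 1 of the 53. Of the 94 genes whose young female half-life switched between tables, 62 were under 0.1 h in the age table and 32 in the sex table, and their implied levels differed by at most 1.15-fold between tables. SOCS1, a short-lived inhibitor of JAK kinases, showed the same: its young female half-life was 0.0182 h in the age table and 0.902 h in the sex table, with implied levels of 153.3 and 153.3.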
